A study of Mus musculus with 6 samples.

Results

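The genes described here are 35 listed members of the hepatic acute phase and cytokine response, matched by symbol; the list itself was drawn up with earlier results of these arrays known. A row was matched for 34 of the 35, in 50 probe sets of the 22690 in the value table. Serpina3m, a serine protease inhibitor gene, was not matched to a row and is not analysed here. The 34 genes were split by role into 17 that encode secreted acute phase proteins and 17 that encode cytokines, receptors, signalling proteins and membrane proteins, and these 2 sets are set against each other. Where a gene had several probe sets (10 members did), the one with the highest mean over the 6 arrays stands for it and the others are given beside it.

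The arrays measured liver RNA of male C57BL/6J mice. The source water group drank source water (DSW in the labels) and the control group distilled water, both for 90 days. Each group held 10 mice, of which the livers of 9 were used, homogenised in lots of 3, so each of the 3 arrays per group carries 1 pool of 3 mice. No allele or transgene is named in the labels, and the ages of the mice and the makeup of the water are not stated in the labels. The spread between arrays is a spread between pools, not between single animals.

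The acute phase response is the change in the liver's secreted proteins that follows infection or injury. Kupffer cells and other macrophages release interleukin-1, tumour necrosis factor and interleukin-6, and hepatocytes answer by distinct routes. Interleukin-6 acts through its receptor, the shared chain gp130 and the transcription factor STAT3, while interleukin-1 and tumour necrosis factor act through NF-kB. C/EBP transcription factors take part in both. Serum amyloid A is among the most strongly induced of these proteins in the mouse, whereas mouse C-reactive protein responds weakly.

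The median log2 signal of an array was 5.79 to 5.86, and pairs of arrays correlated at 0.985 to 0.994 across probe sets. Hepatocyte markers were high on every array, with Alb between 14.88 and 14.95 and Ttr between 14.74 and 14.88. The arrays did not carry equal amounts of signal from other liver cells. The summed signal of 13 of 14 Kupffer cell and macrophage markers (log2 of the sum) ran from 13.47 to 14.03 in source water and from 13.27 to 14.06 in control, that of 11 of 13 neutrophil markers from 8.89 to 9.43 in source water and from 8.76 to 9.35 in control. In bulk tissue, fewer cells of a type and less RNA per cell cannot be told apart. Source water replicate 2 stood apart from the other 5 pools in many of the secreted members, so results that rest on it are given with and without it.

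No member passed the test. Of 34 genes, 0 had a limma adjusted p under 0.05 (lowest 0.474), against 4 of 12393 genes (0.0323%), and 0 of the 50 member probe sets did so, against 9 of 22626 (0.0398%). Without adjustment, 1 of 34 genes, Il6ra, had a limma p under 0.05, where the share over all genes was 6.76%. By probe set the count was 5 of 50, or 10%, where the share over all probe sets was 6.02%. Of these, 2 were higher (both of Il1rn; 3.43% of all probe sets) and 3 lower (2 of Il6ra and 1 of Nfkbiz; 2.59% of all). After adjustment, limma-trend gave 0 of the member probe sets and 35 of all probe sets; the unmoderated statistic gave 0 of both, so its count says nothing about the members. Of the 34 genes, 19 were higher and 15 lower in source water than in control, with log2 differences from -0.83 (Il6ra) to 0.54 (Saa3). The median log2 difference, source water minus control, was 0.0019 for the 17 secreted genes and 0.013 for the 17 cytokine and signalling genes, a gap of -0.011, and -0.0016 over all genes.

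**Figure D1:**
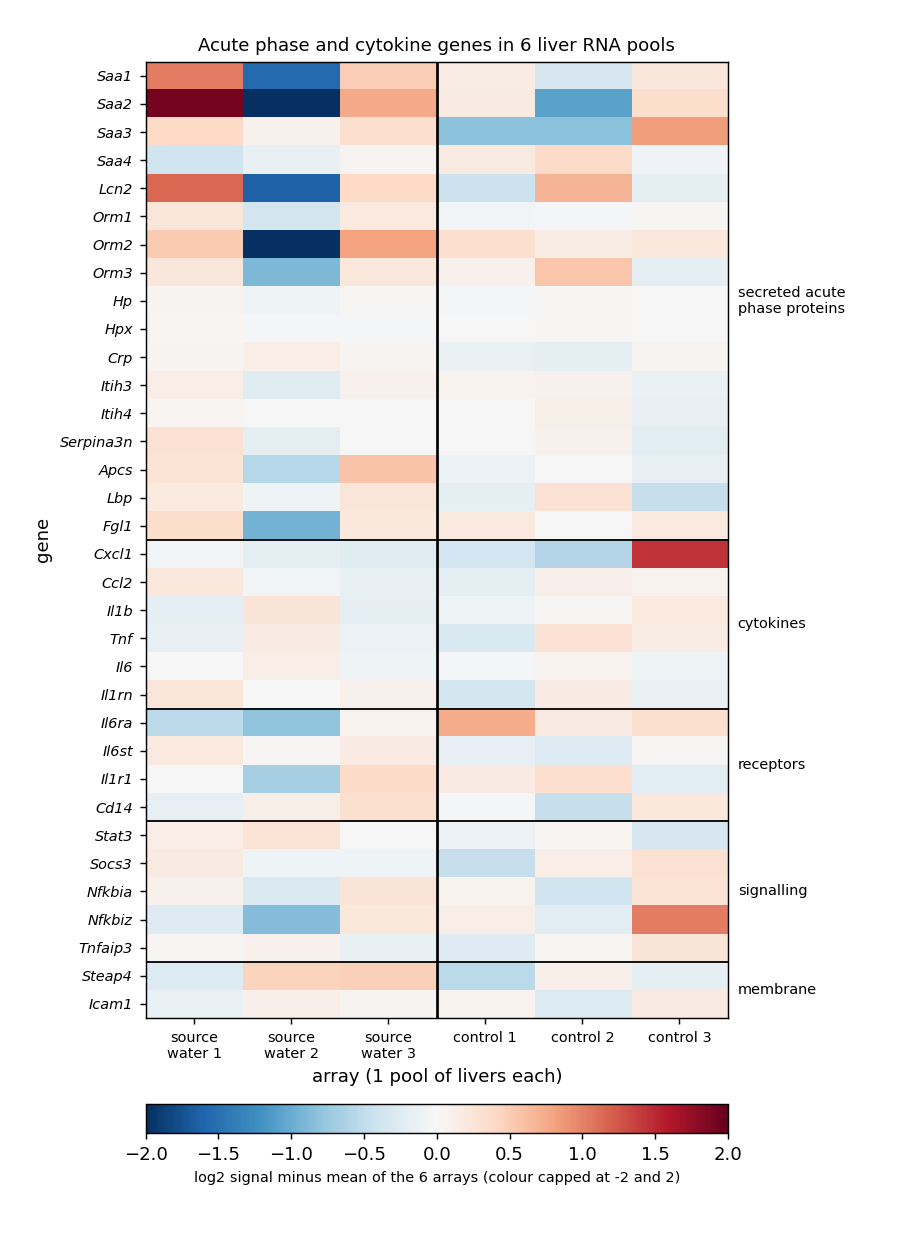
Log2 signal minus the mean of the 6 arrays for 34 genes (rows, grouped by role), with the 3 source water pools left and the 3 control pools right of the vertical line. Red is above and blue below the gene's mean, with the colour capped at -2 and 2. Saa1, Saa2, Lcn2 and Orm2 are dark blue in source water replicate 2, and Cxcl1 and Nfkbiz are red in control replicate 3.

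Most of the secreted genes, 12 of 17, spanned a wider range over the pools than the median gene, and 5 (Hp, Hpx, Crp, Itih3 and Itih4) a narrower one. So did 15 of 17 cytokine and signalling genes, with 2 narrower, so a range above the median was not particular to the secreted genes. Of the 17 secreted genes, 4, Saa1, Saa2, Lcn2 and Orm2, spanned at least 2 log2 units over the 6 arrays. So did 1 of 17 cytokine and signalling genes and 0.758% of all genes. At least 1 log2 unit was spanned by 8 of 17 secreted genes and by 5 of 17 cytokine and signalling genes, against 5.87% of all genes. The median range over the 6 arrays was 0.79 for the secreted genes, 0.61 for the cytokine and signalling genes, 0.995 for the 13 Kupffer cell and macrophage markers and 0.45 for all genes. These shares describe the members and are not a test.

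Saa1 and Saa2 encode the serum amyloid A proteins that circulate on high density lipoprotein. Saa1 had log2 signals of 14.08, 11.51 and 13.56 in source water pools 1 to 3, against 13.21, 12.72 and 13.29 in control pools. Saa2 had 13.42, 9.39 and 12.28 in source water pools, against 11.69, 10.44 and 11.87 in control pools. In both genes source water pools 1 and 3 were the highest of the 6, and source water pool 2 was the lowest. The full order of the 6 pools was the same in both, namely source water 1, source water 3, control 3, control 1, control 2 and source water 2. Within the source water group, pool 1 exceeded pool 2 by 5.95-fold in Saa1 and 16.4-fold in Saa2. The group difference was -0.03 ± 0.57 for Saa1 and 0.36 ± 0.90 for Saa2 (log2, SE, n = 3 pools per group, limma adjusted p = 0.999 for both). The 95% intervals, -1.34 to 1.29 and -1.72 to 2.44, include changes of 2-fold in either direction. A second Saa1 probe set gave 14.15, 11.21 and 13.44 in source water and 12.97, 12.31 and 13.17 in control. By the array's naming, its suffix and that of the Saa2 probe set mark probes that can bind related transcripts, so Saa1 and Saa2 cannot be told apart with certainty.

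The stretches before the start sites of these genes are shown because Saa1, Saa2, Orm2 and Lcn2 were low in the same pool and Saa4 was not. They are the 250 bases before the start in RefSeq's table for GRCm38.p6, given 5′ to 3′ on the gene's strand, and 27 of the 34 genes had such an entry (13 secreted, 14 others). Capitals mark TTGCNNAA, letters of the C/EBP type, on either strand, in the first 5, and letters of the NF-kB type, GGGAATTTCC and, on the other strand, GGAAACACCC, in Cxcl1.
Saa1, chr7:46742981-46743230, minus strand: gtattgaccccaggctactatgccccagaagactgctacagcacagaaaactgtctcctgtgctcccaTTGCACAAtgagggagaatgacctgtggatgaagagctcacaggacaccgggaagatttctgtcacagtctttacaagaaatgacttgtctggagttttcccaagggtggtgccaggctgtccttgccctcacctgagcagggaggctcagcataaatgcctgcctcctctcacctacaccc
Saa2, chr7:46751583-46751832, plus strand: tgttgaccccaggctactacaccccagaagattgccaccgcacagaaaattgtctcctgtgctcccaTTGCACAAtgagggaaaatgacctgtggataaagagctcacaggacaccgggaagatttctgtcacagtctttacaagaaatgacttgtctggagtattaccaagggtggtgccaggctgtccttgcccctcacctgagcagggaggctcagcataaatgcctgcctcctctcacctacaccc
Orm2, chr4:63362199-63362448, plus strand: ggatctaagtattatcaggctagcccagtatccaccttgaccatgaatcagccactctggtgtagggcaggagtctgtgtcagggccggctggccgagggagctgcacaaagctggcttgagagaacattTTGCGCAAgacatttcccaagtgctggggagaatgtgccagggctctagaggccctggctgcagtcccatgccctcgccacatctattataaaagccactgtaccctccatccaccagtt
Lcn2, chr2:32387740-32387989, minus strand: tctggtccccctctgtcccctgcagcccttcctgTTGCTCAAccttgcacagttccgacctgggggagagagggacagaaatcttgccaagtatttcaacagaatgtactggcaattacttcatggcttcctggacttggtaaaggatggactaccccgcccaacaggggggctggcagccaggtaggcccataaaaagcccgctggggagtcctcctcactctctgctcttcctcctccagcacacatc
Saa4, chr7:46732604-46732853, minus strand: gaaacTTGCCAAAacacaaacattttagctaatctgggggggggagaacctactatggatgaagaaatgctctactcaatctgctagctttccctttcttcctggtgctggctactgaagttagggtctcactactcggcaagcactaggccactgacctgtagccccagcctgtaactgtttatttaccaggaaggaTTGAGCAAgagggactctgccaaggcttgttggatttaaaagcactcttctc
Cxcl1, chr5:90890995-90891244, plus strand: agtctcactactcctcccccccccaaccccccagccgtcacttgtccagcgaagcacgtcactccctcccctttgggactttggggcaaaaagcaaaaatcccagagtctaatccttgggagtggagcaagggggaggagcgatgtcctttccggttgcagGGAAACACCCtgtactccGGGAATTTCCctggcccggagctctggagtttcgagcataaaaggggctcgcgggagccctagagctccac

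The Saa1 and Saa2 stretches were identical at 238 of 251 aligned positions (94.8%), and both hold TTGCACAA, 182 bases before the start in Saa1 and 183 in Saa2. Orm2 and Lcn2 hold TTGCGCAA and TTGCTCAA at 120 and 216 bases before the start. Saa4, whose signal did not follow that of Saa1, holds 2 matches, while its stretch shared 49.5% of aligned positions with that of Saa1. The motif TTGCNNAA occurred in 8 of 13 secreted members, 3 of 18 windows of the other members and 9.56% of 32851 windows. Of the genes with a match, Saa1, Saa2, Lcn2, Orm2, Orm3 and Il1r1 were lowest in source water pool 2. Saa3, Saa4, Hpx, Steap4 and Il6 also held a match and were not lowest there. Apcs was lowest in that pool and its stretch held no match. The NF-kB type motif, of 10 bases, occurred in 1 of 13 secreted members (Serpina3n), in 6 of 18 windows of the others (Cxcl1, Il6, Il1rn, Nfkbia, Tnfaip3 and Steap4) and in 1.41% of all windows. TTCNNNGAA, letters of the STAT type, occurred in 2 of 13 (Apcs and Itih4), 3 of 18 (Socs3, Icam1 and Steap4) and 7.02%. The 3 motifs were searched on both strands, and none of the matches within 1 gene overlapped. They were spelled with the sequences in view, and a match is no evidence of binding.

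Lcn2 encodes lipocalin 2, which binds bacterial siderophores. Its signals were 11.68, 8.91 and 10.92 in source water pools, against 10.10, 11.21 and 10.33 in control pools, a group difference of -0.04 ± 0.63 (log2, SE). Orm2, 1 of 3 genes for alpha-1-acid glycoprotein, a plasma protein that binds drugs, had 10.38, 7.81 and 10.66 in source water pools, against 10.19, 10.01 and 10.07 in control pools. The control pools of Orm2 lay within 0.18 of each other, and source water pool 2 lay 2.19 below the next lowest pool, a 4.57-fold gap. Its group difference was -0.47 ± 0.64. Orm3 had 7.60, 6.47 and 7.59 in source water pools, against 7.46, 7.92 and 7.18 in control pools, while Orm1 spanned 13.01 to 13.62 in source water and 13.33 to 13.40 in control. Probes of the 3 Orm genes may share targets.

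The same pool was the low one in further genes, which were singled out after their values were seen. Fgl1, a hepatocyte-secreted fibrinogen-like protein, had 13.39, 12.09 and 13.25 in source water pools, against 13.23, 13.03 and 13.23 in control pools. Apcs, serum amyloid P, an acute phase pentraxin in the mouse, had 12.62, 11.77 and 12.91 in source water pools, against 12.22, 12.34 and 12.17 in control pools. The group differences were -0.25 for Fgl1 and 0.19 for Apcs. In both, source water pools 1 and 3 lay above all control pools and pool 2 below them. Source water replicate 2 was the lowest of the 6 pools in 10 of 17 secreted genes, in 3 of 17 cytokine and signalling genes and in 13.8% of all genes. Source water replicate 1 or 3 was the highest pool in 11 of the 17 secreted genes, against 31.3% of all genes. Source water replicate 2 lay at least 0.5 below every other pool in 6 secreted genes (Saa1, Saa2, Lcn2, Orm2, Orm3 and Fgl1), in 1 of the others (Nfkbiz) and in 64 of 12393 genes (0.516%). No other pool was 0.5 below the rest in any secreted gene.

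**Figure D2:**
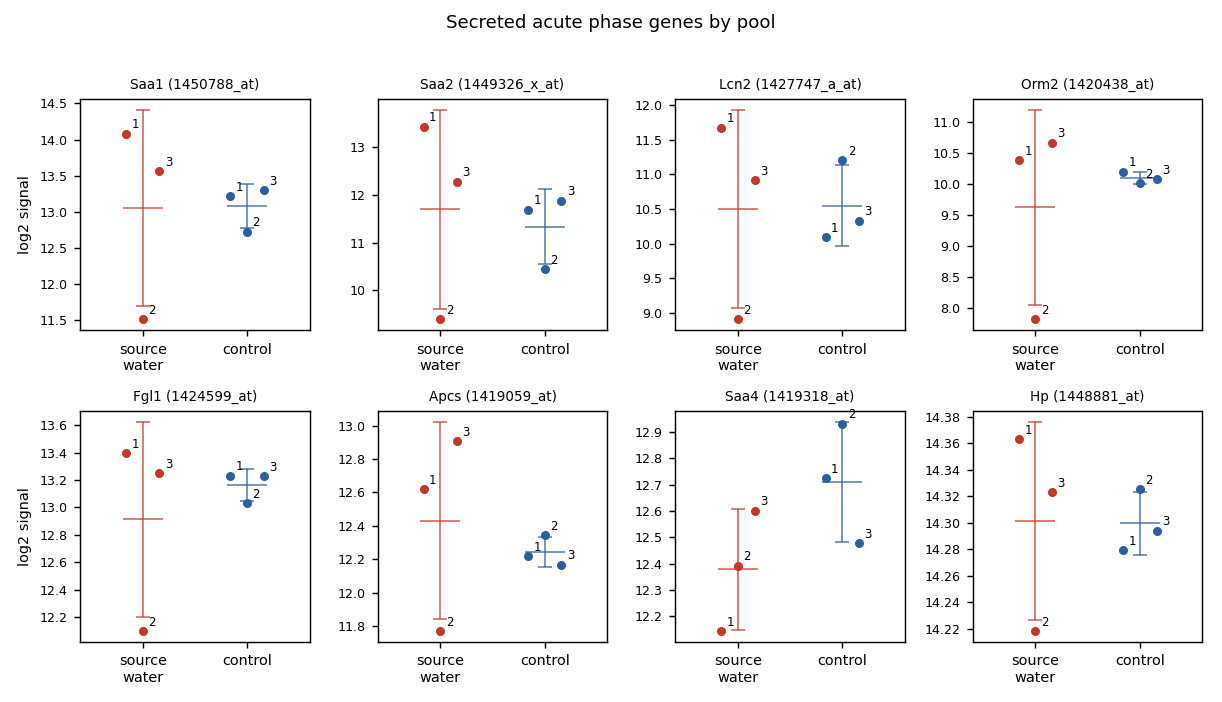
Log2 signal in each pool for 8 secreted acute phase genes, source water left and control right, with the mean and SD of 3 pools and the replicate number beside each point; the vertical scale differs between panels. In 7 of the panels, all but Saa4, source water pool 2 is the lowest point, and the range shrinks to 0.14 log2 units in Hp.

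Hp, Hpx, Crp, Itih3 and Itih4 stayed closer between pools. Hp, haptoglobin, which binds free haemoglobin, had 14.36, 14.22 and 14.32 in source water pools, against 14.28, 14.33 and 14.29 in control pools. Hpx, hemopexin, which binds haem, had 14.50, 14.43 and 14.42 in source water pools, against 14.47, 14.48 and 14.47 in control pools. Both were among the brightest probe sets (99.9th percentile of mean level), and how far the top of the scale narrowed their range was not tested. Crp, C-reactive protein, had 12.79, 12.87 and 12.80 in source water pools, against 12.61, 12.57 and 12.79 in control pools, a difference of 0.16 ± 0.11 (log2, SE). Crp was highest in the pool in which Saa1 and Saa2 were lowest. The inter-alpha-trypsin inhibitor chains Itih3 and Itih4, which bind hyaluronan, differed by -0.02 and 0.04, with ranges of 0.37 and 0.28. Serpina3n, a protease inhibitor gene, had 12.27, 11.79 and 11.98 in source water pools, against 11.96, 12.05 and 11.77 in control pools, a difference of 0.09. Lbp, which carries lipopolysaccharide to CD14, had 11.11, 10.84 and 11.16 in source water pools, against 10.73, 11.22 and 10.45 in control pools. Its difference of 0.24 ± 0.20 became 0.063 without control replicate 3 and 0.44 without control replicate 2.

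Saa4, the constitutive serum amyloid A gene, had the smallest limma p of the secreted genes. It had 12.14, 12.39 and 12.60 in source water pools, against 12.72, 12.93 and 12.48 in control pools, a log2 difference of -0.33 ± 0.16 (SE, limma adjusted p = 0.893), and its second probe set differed by -0.34. The groups overlapped only in that source water pool 3, at 12.60, lay above control pool 3, at 12.48. Saa3, which is made by macrophages and other cells as well as hepatocytes in the mouse, had 9.14, 8.83 and 9.09 in source water pools, against 7.93, 7.92 and 9.58 in control pools. All source water pools lay above control pools 1 and 2 and below control pool 3. Its difference was 0.54 ± 0.40, and it was 1.09 without control replicate 3 (limma adjusted p = 0.141), 0.27 without control replicate 1 and 0.26 without control replicate 2.

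With source water replicate 2 left out, the sign turned in 6 secreted genes, all lower with it and higher without it. The difference became 0.74 for Saa1, 0.75 for Lcn2, 0.43 for Orm2, 0.075 for Orm3, 0.098 for Itih3 and 0.16 for Fgl1 (log2, 2 source water pools against 3 control pools). Saa2 and Apcs were higher in both fits, and their differences became 1.52 and 0.52. The median over the 17 secreted genes became 0.20, with 15 higher and 2 lower, whereas that over the 17 cytokine and signalling genes was 0.041, with 9 higher and 8 lower, and that over all genes was -0.0062. Both remaining source water pools lay above all control pools in 6 of 17 secreted genes, against 11.5% of all genes. Of the 17, 4 (Saa1, Saa2, Orm2 and Apcs) had an unadjusted limma p under 0.05, against 6.28% of all genes, and 0 passed after adjustment (lowest limma adjusted p 0.507). The pool was singled out by its low values, so leaving it out raises the source water mean of these genes by construction. It also narrowed the spread, with the SE of Saa1 falling from 0.57 to 0.23. The p-values and counts without this pool are therefore not a test. The shares over all genes, which were not picked for low values in it, are no fair measure for them.

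**Figure D3:**
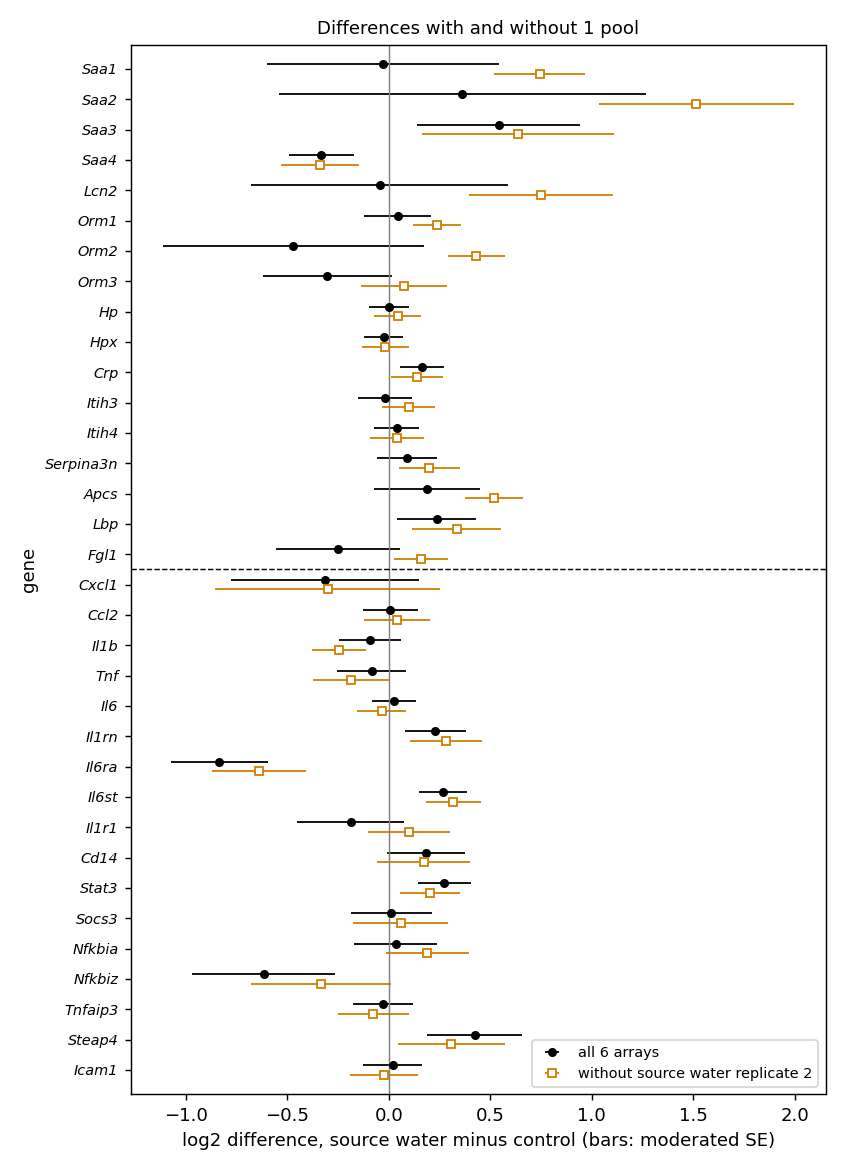
Log2 difference, source water minus control, for 34 genes with the moderated SE as bars, from all 6 arrays (black circles) and without source water replicate 2 (open orange squares). Genes above the dashed line are secreted acute phase proteins. Saa1 stands at -0.03 and 0.74, Saa2 at 0.36 and 1.52, and Il6ra at -0.83 and -0.64.

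Differences were under 0.1 for 4 of the 6 cytokine genes. Il6, Tnf, Il1b and Ccl2 encode interleukin-6, tumour necrosis factor, interleukin-1 beta and a monocyte chemokine. Il6 spanned 3.58 to 3.79 in source water and 3.58 to 3.72 in control, at the 4.48th percentile of mean level, so a change in Il6 may not have been measurable. Ccl2, Tnf and Il1b were also below the median level, at the 37.6th, 40.2nd and 48.6th percentile. How far background narrowed their differences was not tested. Il1b had 5.53, 5.98 and 5.53 in source water pools, against 5.64, 5.75 and 5.92 in control pools, a difference of -0.09 ± 0.15 (log2, SE). Tnf and Ccl2 differed by -0.08 ± 0.17 and 0.01 ± 0.14. Source water pool 2, the lowest in Saa1 and Saa2, was the highest of the 6 pools in Il1b and Il6.

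Cxcl1, a neutrophil-attracting chemokine, had 7.93, 7.80 and 7.74 in source water pools, against 7.59, 7.39 and 9.42 in control pools. Control pool 3 was far above the others, which gave a group difference of -0.31 ± 0.46 (log2, SE), and the difference was 0.33 without that pool (limma adjusted p = 0.832). Nfkbiz, a nuclear regulator of NF-kB target genes, had 6.81, 6.20 and 7.28 in source water pools, against 7.20, 6.85 and 8.09 in control pools, and was also highest in control pool 3. Its difference was -0.62 ± 0.35, which became -0.26 with control pool 3 left out and -0.33 with source water pool 2 left out. A second, dimmer probe set, highest in control pool 2, differed by -0.38 ± 0.13 with groups that did not overlap (limma adjusted p = 0.672). Control replicate 3 was the highest pool in 6 of 17 cytokine and signalling genes, in 1 of 17 secreted genes (Saa3) and in 11.3% of all genes.

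Il1rn encodes the interleukin-1 receptor antagonist, a secreted inhibitor that is itself induced in the acute phase. Its brightest probe set had 6.43, 6.20 and 6.28 in source water pools, against 5.82, 6.35 and 6.05 in control pools, a difference of 0.23 ± 0.15 (log2, SE). A second had 6.15, 5.18 and 5.86 in source water pools, against 4.96, 4.54 and 5.41 in control pools. The third had 5.69, 5.30 and 5.45 in source water pools, against 4.85, 5.02 and 5.08 in control pools, so that its groups did not overlap. All 3 probe sets were higher in source water, the second by 0.76 ± 0.28 and the third by 0.50 ± 0.13 (limma adjusted p = 0.710 and 0.417). In all 3, the order within the source water group was pool 1, pool 3 and pool 2. The authors' deposited table gives p = 0.185, 0.0745 and 0.00213 for the 3 probe sets in this order.

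Il6ra, the interleukin-6 receptor subunit that binds the cytokine, had the smallest p of the 34 genes. Its signals were 8.28, 7.99 and 8.88 in source water pools, against 9.55, 8.98 and 9.13 in control pools, and every source water pool lay below every control pool. The log2 difference was -0.83 ± 0.24 (SE, limma adjusted p = 0.474). The second Il6ra probe set had 6.57, 6.56 and 6.56 in source water pools, against 6.85, 7.01 and 6.77 in control pools, a difference of -0.31 ± 0.11 with no overlap. Its source water values were nearly the same, with pools 2 and 3 both at 6.5647 and an SD of 0.000358, against 0.12 in control. What made this spread so small was not tested, so the lack of overlap in this probe set is weak. Leaving out each pool in turn gave -1.08 to -0.64 for the brighter probe set, with adjusted p from 0.239 to 0.932. The authors' deposited table gives p = 0.00339 for the brighter and 0.0994 for the second probe set. By the authors' deposited table, 4 of the 50 member probe sets (8%) had a p under 0.05, against 6.81% of all probe sets.

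Il6st, which encodes gp130, the signal-transducing partner of the interleukin-6 receptor, ran the other way. Its signals were 8.87, 8.69 and 8.83 in source water pools, against 8.49, 8.41 and 8.69 in control pools, without overlap, although the nearest pools of the groups were both at 8.69. The difference was 0.27 ± 0.12 (log2, SE, limma adjusted p = 0.828), and its other probe sets differed by 0.28 and 0.07. Groups did not overlap in 2 of 34 genes, where the share over all genes was 11.5%. Il6st was the 1 gene higher in that way (6.51% of all genes) and Il6ra the 1 lower (5.03%). The interleukin-1 receptor gene Il1r1 had 8.71, 8.03 and 9.08 in source water pools, against 8.86, 9.04 and 8.47 in control pools, and its lowest pool was again source water 2. Cd14, the lipopolysaccharide co-receptor of macrophages, had 6.73, 6.9998 and 7.20 in source water pools, against 6.85, 6.43 and 7.10 in control pools, a difference of 0.18 ± 0.19 (log2, SE) that was 0.34 with control pool 3 left out and 0.00096 with control pool 2 left out.

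**Figure D4:**
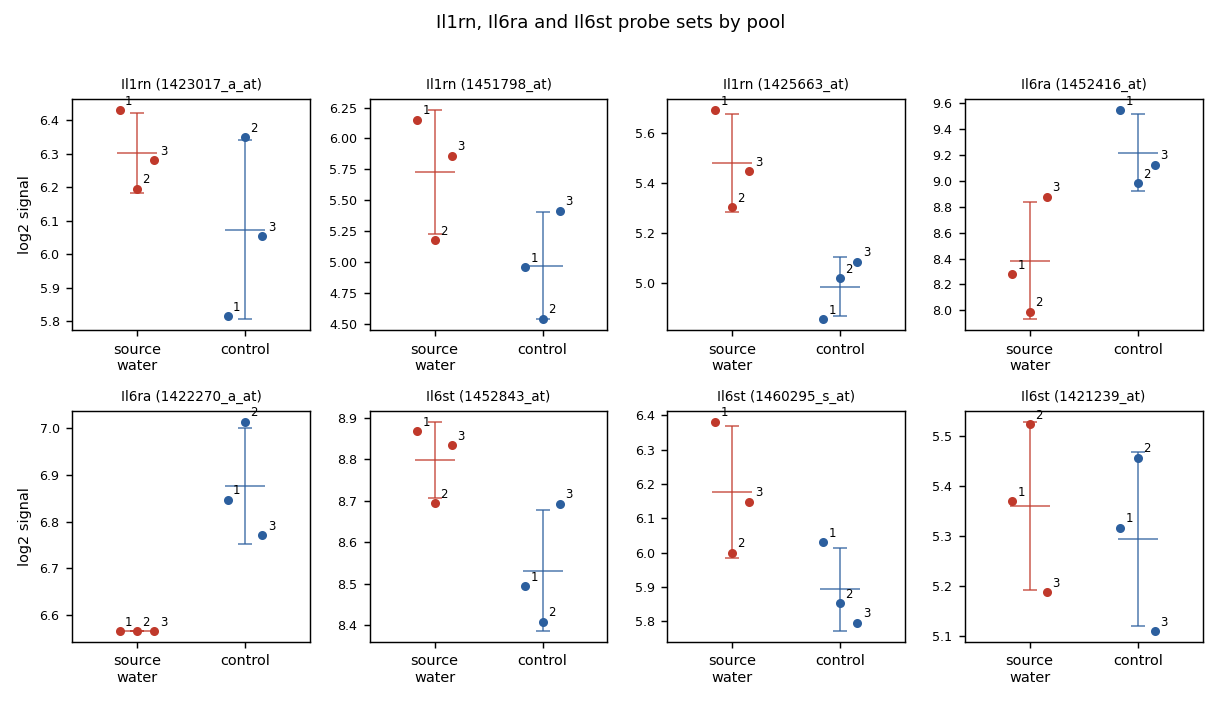
Log2 signal in each pool for every probe set of Il1rn, Il6ra and Il6st, source water left and control right, with the mean and SD of 3 pools and the replicate number beside each point; the vertical scale differs between panels. Both Il6ra probe sets lie below control in all 3 source water pools, and the Il1rn probe sets are higher on average by 0.23 to 0.76.

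Among signalling genes, Stat3 had 9.47, 9.61 and 9.34 in source water pools, against 9.23, 9.37 and 9.01 in control pools, a difference of 0.27 ± 0.13 (log2, SE, limma adjusted p = 0.893). Its other probe sets differed by 0.05 and -0.04. Socs3, the STAT3-induced inhibitor of gp130 signalling, had 6.999, 6.73 and 6.74 in source water pools, against 6.35, 6.94 and 7.13 in control pools, and its 3 probe sets differed by 0.01 to 0.09. Nfkbia, which holds NF-kB in the cytoplasm, had 10.95, 10.56 and 11.11 in source water pools, against 10.92, 10.47 and 11.13 in control pools, and its 4 probe sets differed by 0.03 to 0.18. Tnfaip3, an enzyme that limits NF-kB signalling, had 4.48, 4.53 and 4.30 in source water pools, against 4.20, 4.49 and 4.71 in control pools, a difference of -0.03 ± 0.15. Steap4, an inducible metalloreductase of the membrane, had 10.09, 10.81 and 10.85 in source water pools, against 9.83, 10.47 and 10.18 in control pools, a difference of 0.42 ± 0.23 that ran from 0.26 without control replicate 1 to 0.67 without source water replicate 1. Its pools did not follow the Saa1 order. Icam1, a leukocyte adhesion molecule, had 6.78, 7.01 and 6.97 in source water pools, against 6.98, 6.63 and 7.08 in control pools, a difference of 0.02 ± 0.14. In Nfkbia, Tnfaip3 and Icam1 the groups overlapped, and control pool 3 was the highest in all 3.

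Set by set, the pools ordered differently. The median deviation from the mean of the 6 arrays was 0.24, -0.24 and 0.21 for the secreted genes in source water pools 1 to 3, against -0.01, 0.02 and -0.01 in control pools. For the cytokine and signalling genes it was -0.02, 0.03 and 0.06 in source water pools, against -0.11, 0.04 and 0.18 in control pools. Kupffer cell and macrophage markers stood at -0.18, 0.36 and 0.13 in source water pools, against -0.23, -0.45 and 0.31 in control pools. So the pool with the lowest secreted genes and control pool 3, which had the highest Cxcl1 and Nfkbiz, had the 2 highest medians of macrophage markers. Most single macrophage markers had their highest signal of the 6 pools in source water pool 2. These were Csf1r (11.44), Mpeg1 (11.20), Cd68, Clec4f, Adgre1, C1qa, C1qb and C1qc. Of the 13 markers, 1 was lowest in source water pool 2, namely Marco (5.79). Cd163 (5.26) and Lyz2 (9.65) were lower in that pool than in every pool but control pool 2. Neutrophil markers stood at -0.05, -0.03 and -0.15 in source water pools, against -0.19, 0.31 and -0.11 in control pools, and the median of hepatocyte markers within 0.05 of 0 in all 6. Single hepatocyte markers were not all that close, and source water pool 2 was the lowest in 3 of 9. Tat, 1 of these, had 12.81, 11.85 and 12.97 in source water pools, against 12.76, 12.95 and 12.49 in control pools. Its source water pool 2 lay 0.64 below every other pool. The part of these cell types in the members' signals was not tested.

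**Figure D5:**
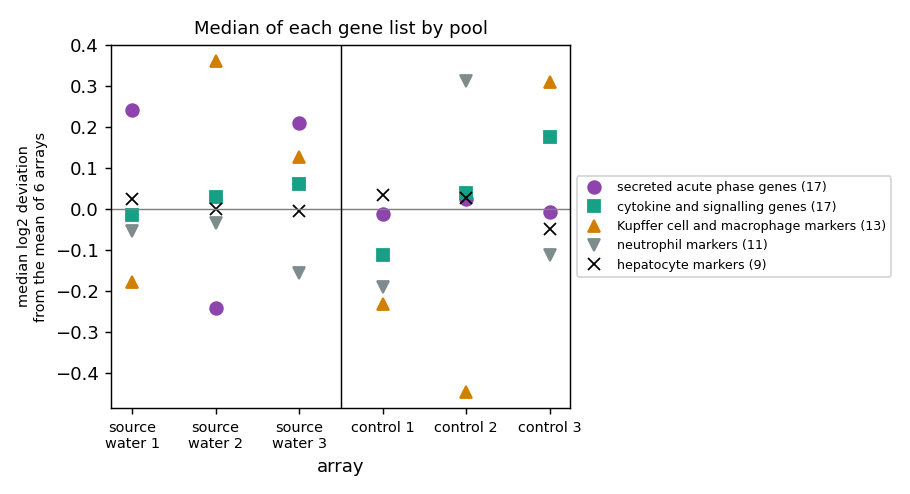
Median log2 deviation from the mean of the 6 arrays for 5 gene lists, by pool, with source water left and control right of the vertical line; the number of genes measured is in the legend. Secreted genes run from -0.24 in source water replicate 2 to 0.24 in source water replicate 1, and hepatocyte markers stay within 0.05 of 0.

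Neighbouring genes of the pathway were counted from lists that, like the members, were chosen with earlier results of these data known. Of 28 measured genes listed as other positive acute phase proteins, 18 were higher and 10 lower, with a median log2 difference of 0.05. Of these 5 had an unadjusted limma p under 0.05, 2 higher and 3 lower, and 0 passed after adjustment. They include Mbl1, a mannose-binding lectin, at 0.36 ± 0.12 (log2, SE), and Masp1, a lectin pathway protease, at -0.36 ± 0.13. Vnn1, a pantetheinase gene that the list also holds, was another, at 2.73 ± 0.68, the largest difference of all 12393 genes. Its control pools ran from 5.15 to 8.05. Source water pool 2 was the lowest in 8 of the 28. Of the 3 fibrinogen chain genes, chosen after their values were seen, Fga and Fgb were lowest in that pool and Fgg was not. Fgb had 14.40, 13.65 and 14.37 in source water pools, against 14.20, 14.37 and 14.22 in control pools. Fga had 13.94, 13.16 and 13.98 in source water pools, against 13.80, 14.05 and 13.59 in control pools. Fgg had 14.45, 14.31 and 14.42 in source water pools, against 14.31, 14.41 and 14.27 in control pools. Of 14 genes listed as negative acute phase genes, a class whose proteins fall in the response, 8 were higher and 6 lower. Their median difference was 0.0023, and 1 had an unadjusted limma p under 0.05. The smallest p-values were those of the apolipoprotein gene Apoa4 (1.02 ± 0.44), the urea cycle gene Cps1 (-0.19 ± 0.10) and the corticosteroid-binding globulin gene Serpina6 (-0.52 ± 0.30). Source water pool 2 was the lowest in 6 of these 14. Among them only Igfbp1 was at least 0.5 below every other pool, while Cps1 was 13.621 there against 13.623 in source water pool 3.

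Of 24 further genes of the interleukin-6 and STAT3 route, 13 were higher and 11 lower (median 0.02), 4 had an unadjusted limma p under 0.05 and 0 passed after adjustment. Cish, a cytokine-inducible inhibitor of STAT5 signalling, differed by -0.77 ± 0.18 (log2, SE), the tyrosine phosphatase gene Ptpn2 by 0.37 ± 0.12 and the transcription factor gene Junb by 0.60 ± 0.19 (limma adjusted p = 0.304, 0.549 and 0.557). Of 38 genes of the interleukin-1, TNF, Toll-like receptor and NF-kB routes, 24 were higher and 14 lower (median 0.04), 4 had an unadjusted p under 0.05, all higher, and 0 passed. The 3 of smallest p were the kinase adaptor Tab2 at 0.51 ± 0.12, the receptor adaptor Myd88 at 0.44 ± 0.14 and the TNF receptor gene Tnfrsf1b at 0.55 ± 0.22. Of 29 chemokine and adhesion genes, 18 were higher and 11 lower (median 0.03), and 0 had an unadjusted p under 0.05 or passed after adjustment in the limma fit. The smallest p-values were those of the chemokine genes Ccl6 (0.41 ± 0.26) and Cxcl12 (0.12 ± 0.11) and of the cytokine gene Tgfb1 (0.11 ± 0.097). The shares with an unadjusted limma p under 0.05 in these 5 lists were 17.9%, 7.14%, 16.7%, 10.5% and 0%, against 6.76% of all genes. Because the lists were chosen with earlier results known, these shares describe them and are not a test.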

How the data were processed

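Liver RNA of 6 pools was measured on 1-colour Affymetrix 3' arrays, per the labels' protocols. The values deposited by the authors are log2 signals per probe set, made with RMA and Partek per the submitters' processing notes, whose versions and settings are not given. The authors' deposited table gives group means on the log2 scale, a p-value, a ratio, and a fold change with a sign (a score below 0 where the ratio is under 1), and the test behind it is not given in the sources used here. Its group means matched those of the value table within 7.67e-05.

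After 64 control probe sets were left out, 22626 probe sets went into 1 linear model of source water minus control (limma 3.58.1 under R 4.3.3, moderated by eBayes). Adjusted p-values are Benjamini-Hochberg values over the whole table. Promoter windows were searched with Python 3.11.15. Symbols came from the platform annotation, checked through Entrez identifiers against a RefSeq gene table (0 changed). Members, gene lists and the rules for naming genes were chosen with earlier results of these data known. Values of every pool are given for members with an unadjusted p under 0.05, for the 3 of smallest p and the brightest in each role, and for a range of at least 2 log2 units; pathway lists are given by counts and the 3 genes of smallest p. Further genes were chosen for their values. No batch is named in the labels. Arrays carry no depth, and their number limits the precision. On simulated arrays for this comparison (22626 probe sets, 200 changed), changes of 1.5-fold were found in 34% of cases, of 2-fold in 90% and of 4-fold in 100%. The changed probe sets were drawn at random from the whole table, where the median within-group SD was 0.16. That of Saa1, Saa2, Lcn2 and Orm2 was 0.99 to 1.57, so these rates do not hold for such genes. The alternatives were a replicate block, 2 normalizations, 2 filters, 2 variance models, averaging the probe sets of a gene, and dropping 1 array at a time.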

Additional observations from a re-analysis of the deposited data

How the results depend on the processing

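All alternatives were planned. In each of them 0 member probe sets and 0 of the 34 genes passed the adjusted threshold. The count of member probe sets with an unadjusted p under 0.05, which was 5, became 2 with either filter on dim probe sets, 2 with the unmoderated statistic and 10 under a replicate block, and ran from 4 to 11 when 1 array was left out (highest with source water replicate 2 left out, and 10 with control replicate 3 left out). The share over all probe sets, 6.02%, was 9.34% and 9.64% with the filters, 5.52% with the unmoderated statistic, 7.45% under the block, 5.64% with source water replicate 2 left out and 5.81% with control replicate 3 left out, so under the filters it was higher while the members' count was lower. The deviations of arrays with the same number correlated at -0.07, 0.28 and 0.17, while the best match of control replicate 1 was source water replicate 3 (0.43), so the numbers do not settle a pairing. With 1 array left out, the median difference ran from -0.066 to 0.20 for the secreted genes, from -0.08 to 0.11 for the cytokine and signalling genes, and from -0.11 to 0.16 for their gap. The sign of the difference turned for Saa1 with the mean of its probe sets (0.045) and for Hp (-0.029) and Socs3 (-0.015) with a repeated quantile normalization. Leaving out 1 array turned the sign of 21 genes in at least 1 run, with log2 differences of Saa1 -0.54 to 0.74, Saa2 -0.50 to 1.52, Lcn2 -0.63 to 0.75, Orm1 -0.066 to 0.24, Orm2 -0.99 to 0.43, Orm3 -0.49 to 0.075, Hp -0.029 to 0.043, Itih3 -0.089 to 0.098, Itih4 -0.032 to 0.11, Serpina3n -0.038 to 0.20, Apcs -0.050 to 0.52, Fgl1 -0.49 to 0.16, Cxcl1 -0.68 to 0.33, Ccl2 -0.096 to 0.081, Tnf -0.26 to 0.038, Il6 -0.035 to 0.074, Il1r1 -0.42 to 0.10, Socs3 -0.21 to 0.17, Nfkbia -0.15 to 0.19, Tnfaip3 -0.16 to 0.094 and Icam1 -0.12 to 0.11. The cause was not tested, beyond each run holding 1 array fewer. The other 13 genes kept their sign in every alternative run. Of these, Crp, Il6ra and Il6st moved by at most 1.5 times, and 10 moved by more when 1 array was left out, namely Saa3 0.26 to 1.09, Saa4 -0.45 to -0.21, Hpx -0.051 to -0.0086, Lbp 0.063 to 0.44, Il1b -0.24 to -0.017, Il1rn 0.10 to 0.37, Cd14 0.00096 to 0.34, Stat3 0.18 to 0.36, Nfkbiz -0.88 to -0.26 and Steap4 0.26 to 0.67. Signals near the floor (Il6) or the top of the scale (Hp, Hpx) may understate differences, and so may those below the median level (Ccl2, Tnf, Il1b and Tnfaip3).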

Other observations

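Source water replicate 2 was at least 0.5 log2 units below every other pool in 64 of 12393 genes, of which 57 lie outside the acute phase and cytokine members. Of these 57, the 5 with the widest gap to the next lowest pool were Cyp4a14, As3mt, Cyp17a1, Gpcpd1 and Igfbp1. Cyp4a14, a fatty acid hydroxylase, had 13.20, 5.63 and 13.16 in source water pools, against 11.05, 7.53 and 11.43 in control pools, and control pool 2 was the second lowest. As3mt, an arsenic methyltransferase, had 9.06, 6.75 and 8.25 in source water pools, against 8.74, 8.36 and 8.29 in control pools. Cyp17a1, a steroidogenic P450, had 8.29, 5.01 and 6.18 in source water pools, against 7.93, 6.66 and 7.13 in control pools. Gpcpd1, a phosphodiesterase of glycerophosphocholine, had 8.94, 7.66 and 8.82 in source water pools, against 9.91, 9.95 and 10.02 in control pools, so all source water pools lay below control. Igfbp1, a secreted binder of insulin-like growth factors, had 11.58, 8.66 and 10.46 in source water pools, against 10.62, 9.73 and 10.01 in control pools. Cebpd, an inducible C/EBP transcription factor gene of the interleukin-6 list, had 8.14, 6.75 and 7.87 in source water pools, against 7.53, 7.98 and 7.77 in control pools. Source water pool 2 was the lowest in 3 of the 24 genes of that list. Of its other C/EBP genes, Cebpb was also lowest there, at 11.39 against 11.73 in control pools 1 and 3. Cebpa, at 10.90, was not lowest there. These genes were singled out after their values were seen. Control replicate 2 was 0.5 below the rest in 88 genes, and 0 of these were secreted members.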
